A study of Eucalyptus urophylla with 24 samples.

Results

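The genes described here are those of the phosphate starvation response and of phosphate transport in leaves of *Eucalyptus urophylla*, 57 of the 26033 genes in the expression table. They were chosen by the wording of the gene descriptions, with earlier results of these data known. The 57 are genes described as PHOSPHATE STARVATION RESPONSE, PHR1-LIKE or PHL regulators, SPX domain proteins, PHO1 exporters, inorganic phosphate transporters or purple acid phosphatases. By role they were 6 regulators, 6 SPX proteins, 5 PHO1 exporters, 10 phosphate transporters and 28 purple acid phosphatases (PAPs). A further 2 genes, described as putative glycerol-3-phosphate transporter 1, were caught by the same wording and carry another substrate. Of the 57 genes, 50 had a mean of at least 0.5 FPKM (fragments per kilobase of transcript scaled to the mapped fragments of the library) over all libraries and were tested. The other 7 were a PHT1-4-like gene, 3 PHO1-like genes, and 3 PAP genes.

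RNA was sequenced from terminal buds, young leaves (juvenile leaves in the labels), mature leaves and senescent leaves of *E. urophylla* triploids, which arose through sexual polyploidization, and of diploid controls. Each of the 8 combinations of 4 stages and 2 ploidies had 3 libraries, 24 in all. No agent applied to the sampled plants and no phosphate supply is given in the labels or the study's methods. For the triploids the study cites a work on megaspore chromosome doubling by colchicine. The triploid libraries carry one code in their titles and the diploid libraries another, and which clones or trees stand behind each library is not given, so effects of ploidy and of the individual plants cannot be told apart, and a p-value speaks of the scatter among these libraries alone.

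As background, phosphate is taken up and moved between plant cells by PHT1 proton symporters, loaded into the xylem by PHO1 and released from organic esters by secreted and vacuolar PAPs. In Arabidopsis, PHR1 and related MYB-CC factors bind a short palindromic element before the genes of this response and switch them on under phosphate shortage. SPX proteins bind inositol pyrophosphates when phosphate is ample and then hold PHR1 back, while *SPX1* and *SPX3* are themselves among the genes that PHR1 switches on. In senescing leaves phosphate is freed from nucleic acids and phospholipids and exported to growing organs.

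The libraries held 38395755 to 64400745 counts (median 56603217) where counts could be tied to them (22 libraries). The FPKM of most genes shifted together between some groups. By the median ratio over 11530 genes measured well everywhere, triploid libraries lay at -0.199 (log2) against diploid ones for terminal buds, at 0.0139 for young, 0.357 for mature and 0.327 for senescent leaves, and changes that this scaling ends or turns are named below. Library 3 of the diploid terminal buds and libraries 1 and 3 of the diploid young leaves deviated most from their groups (SD of the log2 deviations 0.237 to 0.32, against 0.223 or less in the others). Cell division genes (31 of 31 tested) summed to 836 to 1096 FPKM in buds and young leaves and 243 to 311 FPKM in older leaves, and light-harvesting genes were lowest in senescent leaves in both ploidies. Of 16 senescence markers 11 were tested, and 5 rose from mature to senescent leaves in diploids and 8 in triploids. Their summed level was 29408 to 33026 FPKM in diploid and 7532 to 8167 FPKM in triploid senescent leaves (means 31066 and 7934 FPKM). A single *SAG12* gene (Eucgr.D00494) gave most of it, at means of 28750 and 5339 FPKM. In the triploid the next marker, Eucgr.H01103, gave 1594 FPKM. In triploid senescent leaves 3 of the 11 markers were lower and 6 higher than in the diploid. The other 5 *SAG12* genes had means of at most 0.767 FPKM in senescent leaves, and 1 marker was at 0 there in both ploidies. Xylem markers (31 of 41 tested) had group means of 57.1 to 1396 FPKM in sum, highest in diploid terminal buds, and phloem markers (18 of 24 tested) of 132 to 1312 FPKM, highest in diploid mature leaves.

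All 6 regulators were detected in every library, and 3 of them, *PHR1*, *PHL6* and *PHL13*, were higher in the triploid in mature and senescent leaves. They belong to the GLK family that the study named: *PHR1* is EgrGLK2, *PHL13* EgrGLK9, *PHL11* EgrGLK18, *PHL6* EgrGLK25, *PHL8* EgrGLK30 and *PHL2* EgrGLK31. *PHL6* (Eucgr.F04055) was the most abundant of them over the 24 libraries, with a mean of 48.2 FPKM. It lies on chromosome 6 (51329899 to 51336284, plus strand) in the coordinates of the deposited table, whose assembly release is not stated. The primers below were designed by the study for qPCR of this transcript and are shown because they fix which regulator is meant, since no other stretch of a member gene was used here.
left primer: attacagaggccttgcgcat
right primer: gagggcatgtcaggacaaca

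*PHL6* stood at 36, 37.9 and 37.2 FPKM in the diploid mature leaf libraries and at 72.6, 76.8 and 75.5 FPKM in the triploid ones. In senescent leaves it stood at 41, 47.2 and 44.5 FPKM in diploids and at 88.2, 84.4 and 80.3 FPKM in triploids. The triploid libraries were higher than every diploid library at both stages, by 1.0 ± 0.084 (log2(FPKM + 1), SE, limma adjusted p = 2.7e-09) and 0.92 ± 0.084 (adjusted p = 6.4e-09). FPKM are relative to all RNA of a library, so a change in the share of cells that hold a transcript and a change per cell cannot be told apart. After scaling, these differences were 0.65 and 0.59 (adjusted p = 2.0e-08 and 5.6e-08). In young leaves, with means of 52 FPKM in diploids and 45.2 FPKM in triploids, the difference was -0.19 (adjusted p = 0.10; after scaling -0.21, adjusted p = 0.019). From young to mature leaves *PHL6* fell in the diploid by 0.48 on the log2 scale and rose in the triploid by 0.72, and the steps differed (difference 1.19, adjusted p = 1.3e-07). The diploid fall was not seen after scaling (0.027), and the difference of steps was then 0.86 (adjusted p = 2.6e-07).

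*PHL13* (Eucgr.B02155) was at 20.5, 22.3 and 20.3 FPKM in diploid and 39.98, 42.4 and 41.7 FPKM in triploid mature leaves. It was at 35.6, 40.4 and 39 FPKM in diploid and 71.2, 69.3 and 66.9 FPKM in triploid senescent leaves, the highest group of either ploidy. The triploid was thus higher by 0.94 and 0.84 on the log2 scale (adjusted p = 7.8e-08 and 3.9e-07; after scaling 0.60 and 0.51, adjusted p = 6.2e-07 and 4.4e-06). *PHL13* rose from mature to senescent leaves by 0.83 in diploids and 0.73 in triploids, steps that did not pass the test of their difference (adjusted p = 0.65).

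*PHR1* (Eucgr.A01323), the regulator after which the group is named, was at 12.7, 10.8 and 11.8 FPKM in diploid and 19.8, 20.6 and 18.4 FPKM in triploid mature leaves. In senescent leaves it was at 10.2, 12.8 and 11.6 and 22.8, 19.4 and 18.2 FPKM. The triploid was higher by 0.69 (adjusted p = 4.7e-05) and 0.75 (adjusted p = 1.9e-05), and by 0.36 and 0.45 after scaling. With edgeR on the counts, where only 1 diploid senescent library could be used, the senescent difference was 0.35 and did not pass the test (adjusted p = 0.088). In terminal buds the order was the other way, with 12, 13.1 and 17.3 FPKM in the diploid against 10.4, 10.2 and 9.48 FPKM in the triploid (log2 -0.44, adjusted p = 0.0055). *PHR1* did not change detectably from mature to senescent leaves in either ploidy (log2 -0.032, adjusted p = 0.85, and 0.031, adjusted p = 0.85).

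The other 3 regulators followed leaf age in other ways. *PHL2* (Eucgr.H00055), whose Arabidopsis counterpart acts together with PHR1, was highest in terminal buds, at 28.4, 25.2 and 24.7 FPKM in diploids and 16.4, 16.4 and 17.5 FPKM in triploids (log2 difference -0.61, adjusted p = 8.2e-06). It fell from mature to senescent leaves more in the diploid (11.2 to 6.75 FPKM) than in the triploid (10.4 to 8.89 FPKM), with a difference of 0.45 between the steps (adjusted p = 0.0098) that edgeR on the counts did not call (adjusted p = 0.58). *PHL8* (Eucgr.G02494) fell from 35.7 to 13 FPKM in diploids and from 32.3 to 14.1 FPKM in triploids at that step (log2 -1.39 and -1.14, adjusted p = 5.5e-10 and 1.3e-08). *PHL11* (Eucgr.D02611) was the lowest, between 5.65 and 12.6 FPKM in the group means, and highest in young leaves.

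**Figure D1:**
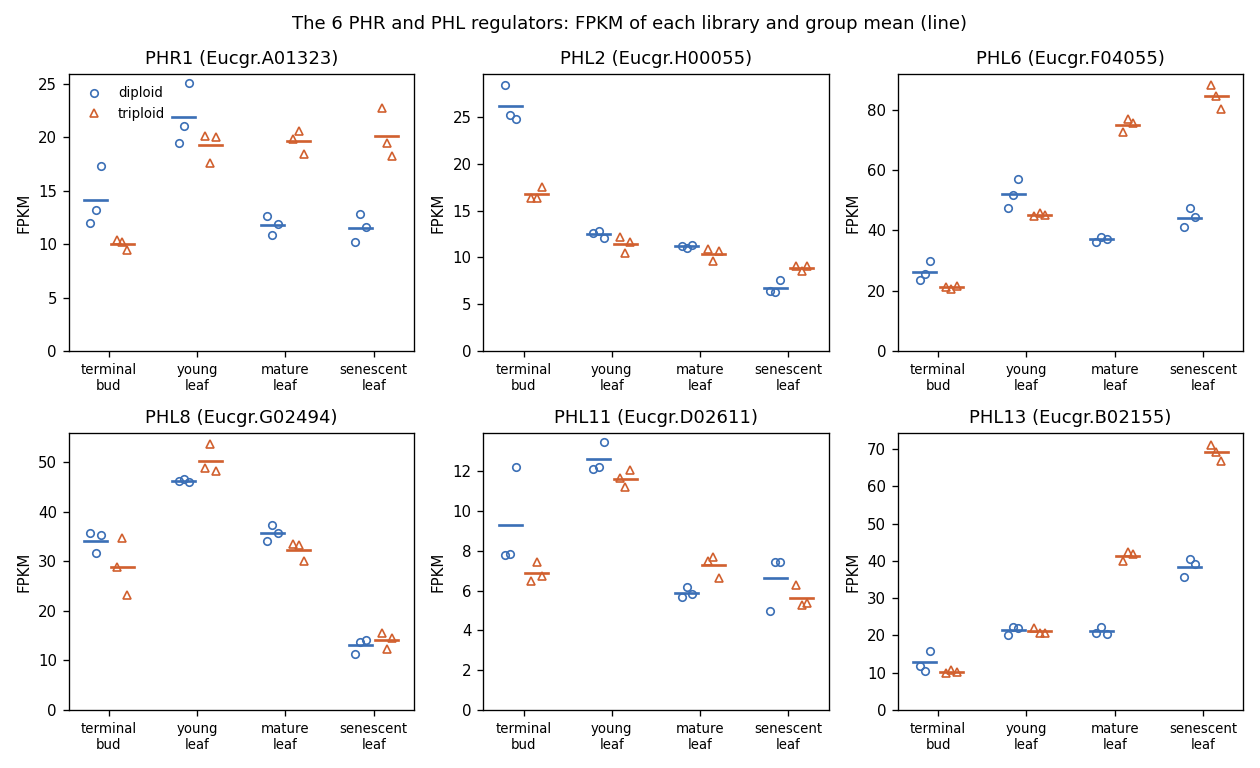
FPKM (y axis, from 0) of the 6 PHR and PHL regulators at the 4 stages (x axis), with each library as a point, diploid as circles and triploid as triangles, and the group mean as a line. The triploid points of PHR1, PHL6 and PHL13 lie above all diploid points in mature and senescent leaves, while PHL8 falls in senescent leaves in both ploidies.

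Of the 6 SPX genes, *SPX1*, *SPX2* and *SPX3* rose steeply in senescent leaves of the diploid and far less in those of the triploid. *SPX2* (Eucgr.C01177) was the most abundant of all 57 genes, at a mean of 206 FPKM over the 24 libraries. It was at 39.96, 39.8 and 42.3 FPKM in diploid mature leaves and at 1042, 1012 and 1018 FPKM in diploid senescent leaves. In the triploid it was at 34.7, 28.1 and 29.7 FPKM in mature and 179, 182 and 195 FPKM in senescent leaves. The means thus rose 25.2-fold in the diploid and 6.01-fold in the triploid, and the steps differed by -2.07 ± 0.13 on the log2 scale (adjusted p = 2.5e-10).

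*SPX3* (Eucgr.D02493) was low in mature leaves, at 1.7, 1.31 and 3.64 FPKM in diploids and 2.41, 1.36 and 1.45 FPKM in triploids, groups that overlapped. In senescent leaves it reached 70.01, 75.8 and 79 FPKM in diploids and 5.65, 6.63 and 5.39 FPKM in triploids, 12.7-fold apart in the means (log2 -3.46 ± 0.20, adjusted p = 4.6e-12). Its steps differed by -3.28 ± 0.29 (adjusted p = 2.4e-08), more than those of any other member. In terminal buds and young leaves *SPX3* lay between 7.29 and 9.29 FPKM in the group means, with no ploidy difference past the test (adjusted p = 0.32 and 0.78).

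*SPX1* (Eucgr.C04220) turned its ploidy order with leaf age. It was at 0.813, 0.849 and 1.9 FPKM in diploid and 2.69, 5.95 and 3.07 FPKM in triploid terminal buds. In young leaves it was at 1.97, 1.94 and 2.14 and 7.36, 5.84 and 5.65 FPKM, so that every triploid library was above every diploid one at these 2 stages (log2 1.14 and 1.26, adjusted p = 7.7e-05 and 7.9e-05). In mature leaves the diploid was higher, at 4.6, 3.997 and 6.51 against 1.62, 1.73 and 1.997 FPKM (log2 -1.10, adjusted p = 6.1e-05). In senescent leaves the gap was widest, with 46, 51 and 52.3 FPKM in diploids and 4.15, 4.24 and 4.71 FPKM in triploids (log2 -3.24 ± 0.20, adjusted p = 1.1e-11). From mature to senescent leaves the steps differed by -2.14 ± 0.28 (adjusted p = 6.7e-06). From young to mature leaves *SPX1* rose in the diploid (0.98, adjusted p = 0.00014) and fell in the triploid (-1.38, adjusted p = 2.2e-06), with a difference of -2.36 between the steps (adjusted p = 1.5e-06).

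*SPX2* had the same turn of order as *SPX1*. It was higher in the triploid in terminal buds (118 against 83.4 FPKM, log2 0.51, adjusted p = 0.00013) and young leaves (93.2 against 73.2 FPKM, log2 0.34, adjusted p = 0.011), the latter call being lost without the 3 deviating libraries (0.29, adjusted p = 0.068). It was lower in the triploid in mature leaves (log2 -0.39, adjusted p = 0.00088) and senescent leaves (log2 -2.46 ± 0.093, adjusted p = 3.9e-15). None of these directions changed with scaling, which gave 0.70, 0.33, -0.74 and -2.79.

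The remaining SPX genes did not share this course. *SPX4* (Eucgr.I01961), which in Arabidopsis acts on PHR1 without being starvation-induced itself, kept to group means of 13.4 to 25.1 FPKM. It was higher in triploid senescent leaves (19.6, 20.2 and 20.4 against 13.4, 13.4 and 13.6 FPKM, log2 0.54, adjusted p = 1.0e-05; after scaling 0.24, adjusted p = 0.012). Both further genes are described as SPX domain membrane proteins like At4g22990, a vacuolar phosphate transporter of Arabidopsis. The first (Eucgr.D01930) rose from 2.08, 2.01 and 1.98 to 23.3, 30.1 and 24.7 FPKM in diploids and from 7.31, 7.22 and 7.26 to 53, 54.3 and 44.3 FPKM in triploids, so that the triploid was higher at both stages (log2 1.45 and 0.93, adjusted p = 4.4e-07 and 0.00011). Its steps did not pass the test of their difference (-0.52, adjusted p = 0.14). With edgeR on the counts the senescent differences of *SPX4* and of Eucgr.D01930 were 0.13 and 0.59 and not called (adjusted p = 0.49 and 0.26). The second (Eucgr.E00526) was highest in young leaves (14.6 and 12 FPKM) and fell to 3.29 and 3.97 FPKM in senescent leaves, with a difference of -0.68 between the steps from mature leaves (adjusted p = 0.033). That call was lost with a pseudocount of 0.1 (-0.73) and, at differences of -0.69 to -0.57, without diploid mature leaf library 2 or 3, diploid senescent leaf library 1 or 3, triploid mature leaf library 2 or 3 or triploid senescent leaf library 2 or 3.

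**Figure D2:**
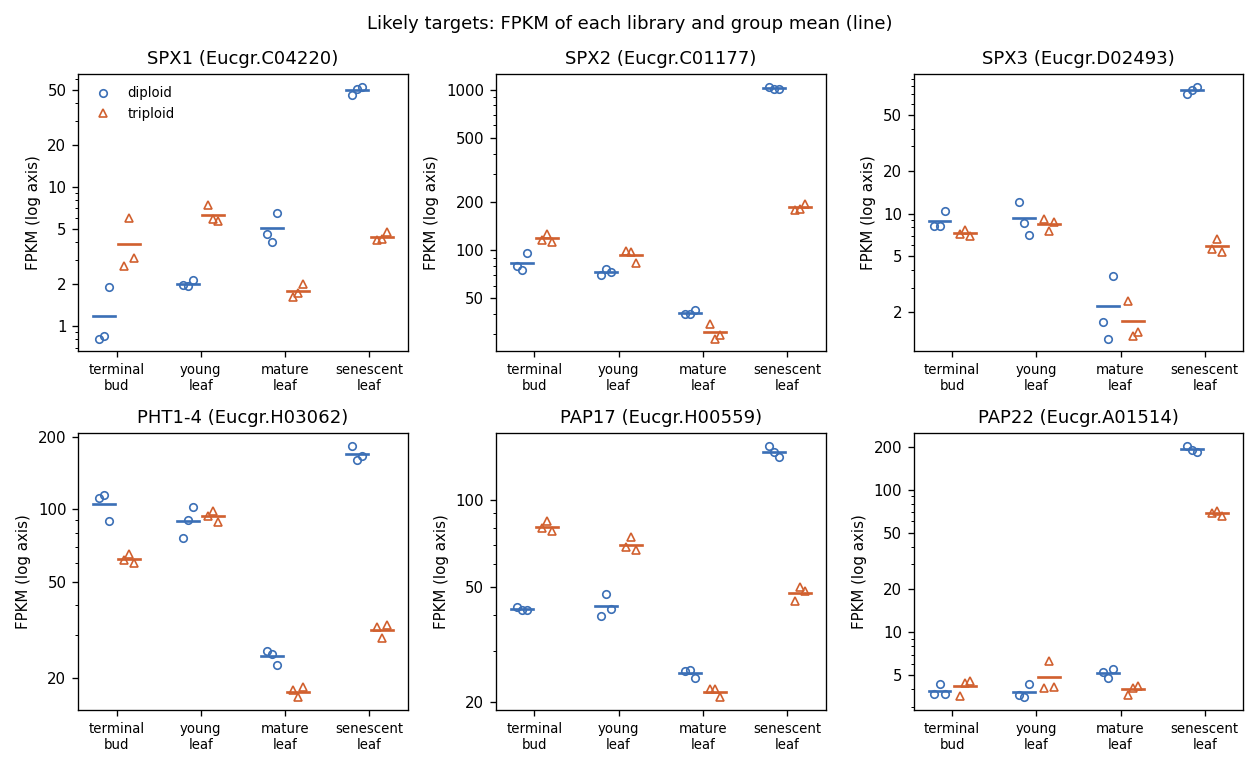
FPKM (y axis, log scale) of SPX1, SPX2, SPX3, the phosphate transporter PHT1-4 (Eucgr.H03062) and the phosphatases PAP17 and PAP22 at the 4 stages (x axis), with each library as a point, diploid as circles and triploid as triangles, and the group mean as a line. In senescent leaves all 6 genes have every diploid point above every triploid point, with SPX2 at a mean of 1024 FPKM in diploids and 185 FPKM in triploids.

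The PHO1 exporters were low and peaked in mature leaves of both ploidies. Of 5 genes only the 2 copies of *PHO1 homolog 1* reached the filter. Eucgr.B03070 was at 0.0419, 0.12 and 0.142 FPKM in diploid young leaves and 8.33, 7.4 and 5.82 FPKM in diploid mature leaves. In the triploid it was at 0.309, 0.279 and 0.319 and 9.81, 11.5 and 10.6 FPKM, and it fell again in senescent leaves to means of 2.24 and 3.97 FPKM (log2 -1.33 and -1.24, adjusted p = 3.1e-08 and 8.3e-08). In terminal buds it was higher in the triploid, at 4.28, 4.86 and 3.05 against 1.05, 1.16 and 0.991 FPKM (log2 1.28, adjusted p = 2.2e-07). The other copy (Eucgr.G02378) was lower and also highest in mature leaves, with means of 3.7 and 3.9 FPKM in mature leaves and 0.321 and 0.381 FPKM in senescent leaves. Reads of these copies, like those of the transporter and phosphatase copies described next, may be split between near-identical genes.

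Among the phosphate transporters, *PHT1-4* (Eucgr.H03062) rose further in the diploid in senescent leaves. It was at 26, 25.1 and 22.7 FPKM in diploid mature leaves and 183, 160.1 and 166 FPKM in diploid senescent leaves. The triploid libraries were at 17.7, 16.6 and 18.3 and 32.5, 29.4 and 33 FPKM. The means rose 6.9-fold in the diploid and 1.8-fold in the triploid, and the steps differed by -1.92 ± 0.15 (adjusted p = 3.4e-09). In young leaves the ploidies were close, at 89.2 and 93.3 FPKM (log2 0.073, adjusted p = 0.66), and in terminal buds the triploid was lower (log2 -0.74, adjusted p = 5.6e-06).

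A pair of further PHT1 genes rose from mature to senescent leaves in the diploid, and neither of their changes in the triploid passed the test. *PHT1-8* (Eucgr.F01811) went from 47, 47.6 and 39.2 to 139, 122 and 125 FPKM in the diploid, and stood at 51.8, 50.6 and 55.3 and 58, 60.3 and 58.8 FPKM in the triploid. *PHT1-9* (Eucgr.F03590) went from 17.9, 17.3 and 16.7 to 51.4, 46.6 and 45.9 FPKM in the diploid, and stood at 23, 25.4 and 26.2 and 25, 25 and 22.1 FPKM in the triploid. The differences between the steps were -1.34 and -1.46 (adjusted p = 5.3e-05 and 5.6e-07). The triploid steps had log2 values of 0.17 and -0.046 (adjusted p = 0.35 and 0.75).

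For other PHT1 genes the steps did not pass the test of their difference. *PHT1-7* (Eucgr.H00164) stood at 66.4, 64.9 and 60.02 FPKM in diploid and 64.6, 70.01 and 59.98 FPKM in triploid senescent leaves, after 15.8 and 16 FPKM in mature leaves, and the difference between the steps was 0.0065 ± 0.17 (adjusted p = 0.99). Its neighbour, a second *PHT1-4* (Eucgr.H00163), rose from 2.21 to 29.3 FPKM in diploids and from 5.66 to 48.5 FPKM in triploids, where it was higher at both stages (log2 1.06 and 0.71, adjusted p = 5.1e-07 and 7.6e-05; with edgeR 0.31 in senescent leaves, adjusted p = 0.35). The difference of its steps was -0.35 ± 0.18 (adjusted p = 0.18). Another *PHT1-4* (Eucgr.K03265) did not exceed 2.3 FPKM in any group mean and was lower in triploid senescent leaves (0.0918 against 0.595 FPKM, log2 -0.55, adjusted p = 0.0040).

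*PHT1-3* (Eucgr.H03069) was the transporter with the highest mean and rose from young to mature leaves in both ploidies (log2 1.65 and 1.35, adjusted p = 0.0005 and 0.0033), the diploid value being 0.81 without young leaf library 1. It stood at 258, 235 and 231 FPKM in diploid and 403, 407 and 391.7 FPKM in triploid senescent leaves. In diploid young leaves libraries 1 to 3 stood at 18, 98.3 and 118 FPKM, the first far below the others, and in triploid ones at 116, 147 and 119 FPKM. The call of a higher level in triploid young leaves (log2 1.07, adjusted p = 0.046) was lost without the deviating libraries (0.36, adjusted p = 0.070). The chloroplast transporters *PHT2-1*, which bring phosphate into the organelle, had different courses. Eucgr.B03285 rose from terminal buds to mature leaves, from 11.2 to 99.5 FPKM in diploids and from 6.3 to 108 FPKM in triploids, and fell in senescent leaves to 55.3 and 39.2 FPKM, further in the triploid (difference -0.61, adjusted p = 0.0099). Eucgr.H02499 had group means of 65.5 to 99.1 FPKM. From mature to senescent leaves it rose in the diploid (log2 0.42, adjusted p = 0.00012), with -0.032 in the triploid (adjusted p = 0.76) and a difference of -0.46 (adjusted p = 0.0055).

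Summed over the 8 PHT1 genes, the level was 681 FPKM in diploid and 629 FPKM in triploid senescent leaves and 296 and 441 FPKM in mature leaves. Of these sums in senescent leaves *PHT1-3* gave 241 FPKM of the diploid sum and 400.4 FPKM of the triploid one.

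The glycerol-3-phosphate transporters, which move the product of phospholipid breakdown and of which the Arabidopsis *G3Pp1* is starvation-induced, both rose in senescent leaves. Eucgr.A02892 went from 70.8, 74 and 69.7 to 196, 181 and 179 FPKM in diploids and from 83.4, 80.1 and 81.5 to 108, 104 and 92.5 FPKM in triploids (difference of the steps -1.05, adjusted p = 1.4e-06). It was higher in the triploid in terminal buds (log2 0.49, adjusted p = 8.3e-05) and lower in senescent leaves (log2 -0.86, adjusted p = 2.6e-08), as *SPX1* and *SPX2* were. Eucgr.K00159 rose to 28.4 and 28.3 FPKM (difference of the steps -0.03 ± 0.14, adjusted p = 0.91).

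Of the 25 PAP genes tested, 13 rose and 4 fell from mature to senescent leaves in the diploid, and 14 rose and 6 fell in the triploid. Of all genes tested 25.3% rose and 32.4% fell at this step in the diploid, and 29.0% and 32.1% in the triploid. *PAP17* (Eucgr.H00559), in Arabidopsis a phosphatase of both starvation and senescence, had the ploidy order of *SPX2* at each stage, but in the triploid it was highest in terminal buds. It was at 42.6, 41.8 and 41.6 FPKM in diploid and 79.6, 84.8 and 77.9 FPKM in triploid terminal buds. In senescent leaves it was at 154, 146 and 141 FPKM in diploids and 44.7, 50.1 and 48.4 FPKM in triploids. The triploid was higher in buds and young leaves (log2 0.93 and 0.69, adjusted p = 2.3e-09 and 6.3e-07), lower in mature leaves (-0.21, adjusted p = 0.019, a call lost without diploid library 1 or 2 or triploid library 3, at -0.20, -0.19 and -0.18) and lower in senescent leaves (-1.60 ± 0.075, adjusted p = 1.2e-13). The step from mature to senescent leaves differed by -1.39 (adjusted p = 3.4e-09).

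*PAP3* (Eucgr.B02657) had the largest rise of all members on the log2(FPKM + 1) scale in both ploidies. It went from 1.59, 2.6 and 1.94 to 333, 330.5 and 305 FPKM in diploids and from 2.12, 2.19 and 1.82 to 261, 269.6 and 278 FPKM in triploids, 158-fold and 132-fold in the means. The difference of the steps was -0.27 ± 0.21 (adjusted p = 0.40). A second *PAP3* (Eucgr.G02074) also had its highest mean in senescent leaves in diploids. In triploids its mean was highest in terminal buds and lowest in senescent leaves.

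A cluster of 3 PAP genes on chromosome 1, with 28389 and 12977 bp between neighbours, rose in senescent leaves. *PAP22* (Eucgr.A01514) rose from 5.32, 4.76 and 5.55 to 203, 189 and 183 FPKM in diploids and from 3.62, 4.1 and 4.24 to 68.7, 71.1 and 64.9 FPKM in triploids (difference of the steps -1.16, adjusted p = 3.5e-05). *PAP20* (Eucgr.A01510) rose from 0.137, 0.316 and 0.47 to 46, 44 and 42.2 FPKM in diploids and from 0.228, 0.067 and 0.121 to 11, 10.1 and 10.4 FPKM in triploids. On the log2(FPKM + 1) scale its steps differed by -1.77 (adjusted p = 9.2e-09), but not with edgeR on the counts (-1.03, adjusted p = 0.58) or with a pseudocount of 0.1 (-1.32). Between them lies a second *PAP22* (Eucgr.A01511), listed at 0 with a count of 0 in all 6 mature leaf libraries. It reached 53.4, 45.5 and 47.5 FPKM in diploid and 59.1, 64 and 53.3 FPKM in triploid senescent leaves, at least 1570-fold and 1810-fold above a floor of 3 counts per library, and the ploidies overlapped (log2 difference 0.26, adjusted p = 0.078). The ploidy difference in senescent leaves passed the test for *PAP22* (Eucgr.A01514, log2 -1.48, adjusted p = 1.7e-09) and *PAP20* (log2 -1.97, adjusted p = 6.8e-13) and did not pass it for the copy between them.

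Other PAP genes had courses of their own. *PAP29* (Eucgr.E02854), described as probably inactive, was lower in the triploid at every stage, at 9.63, 25, 26.8 and 35 FPKM against 20.5, 41.7, 54.8 and 63.5 FPKM (log2 -1.0, -0.71, -1.0 and -0.84). The libraries did not overlap at any of the 4 stages, and adjusted p lay between 2.4e-07 and 0.00013. *PAP27* (Eucgr.J01195) was at 44.3, 41 and 38.9 FPKM in triploid and 11.4, 10.3 and 9.04 FPKM in diploid terminal buds (log2 1.92 ± 0.16, adjusted p = 3.9e-09). *PAP16* (Eucgr.A02300) fell from 10.1 to 2.74 FPKM in diploids and from 16.9 to 1.96 FPKM in triploids (difference of the steps -1.03, adjusted p = 4.1e-05). The copies of *PAP18* had group means of 16.4 to 33.1 FPKM (Eucgr.F00806) and 18.3 to 33.3 FPKM (Eucgr.F00772).

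Over all 50 tested members, senescence was the stage of the highest mean for 27 in diploids and 23 in triploids, and the highest stage was the same in both ploidies for 32. The same counts were not made over all genes, so they do not set the members apart. From mature to senescent leaves 27 members rose and 11 fell in the diploid, where 25.3% of all 19174 genes tested rose and 32.4% fell. In the triploid 24 rose and 13 fell, against 29.0% and 32.1% of all genes. The median log2 change of the members was 0.49 in diploids and 0.28 in triploids, and that of all genes -0.075 and -0.048.

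The steps themselves differed between the ploidies for 24 members, 20 with a smaller rise or a larger fall in the triploid and 4 with the opposite. Of all genes 12.1% had a lower and 13.6% a higher triploid step, and the median difference was -0.29 over the members and 0.00094 over all genes. With edgeR on the counts the split was 19 lower and 1 higher. The 20 members were 4 of 6 SPX genes, 5 of 9 phosphate transporters, 1 of 2 glycerol-3-phosphate transporters and 10 of 25 PAP genes. By limma none of the 6 regulators was among them, and *PHL2* was among the 4. The edgeR fit, with 1 diploid senescent library, did not give the same split of the regulators. Beside these results, the summed senescence markers were 29408 to 33026 FPKM in diploid and 7532 to 8167 FPKM in triploid senescent leaves. Most of these sums came from a single *SAG12* gene, and of the 11 markers tested 3 were lower and 6 higher in the triploid. Light-harvesting genes summed to 4412 to 4798 FPKM in diploid and 2678 to 2954 FPKM in triploid senescent leaves. Phloem markers summed to 1125 to 1632 FPKM in mature and 724 to 1008 FPKM in senescent leaves of the diploid, and to 462 to 467 and 853 to 988 FPKM in the triploid. The part of these genes in the ploidy differences was not tested.

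**Figure D3:**
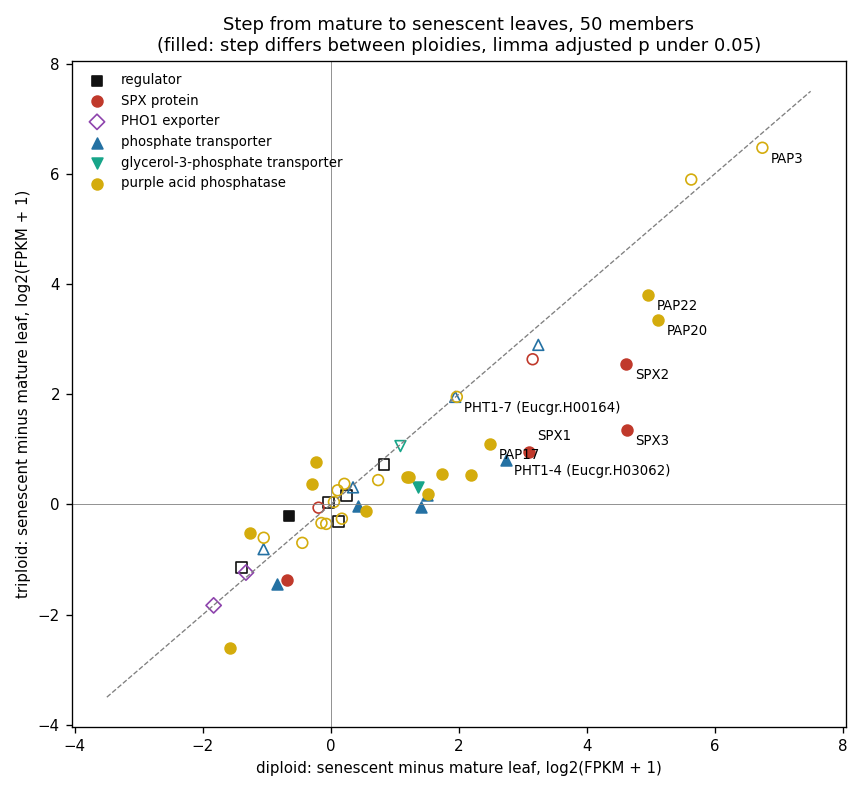
Change from mature to senescent leaves in log2(FPKM + 1) of the 50 tested members, diploid on the x axis and triploid on the y axis, with colour and shape for the role and filled points where the steps differ between the ploidies (limma adjusted p under 0.05). The dashed line marks equal change. SPX1, SPX2, SPX3 and PHT1-4 lie far below it (-3.28 for SPX3), while PAP3 and PHT1-7 lie close to it.

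The earlier steps had other members in front. From terminal buds to young leaves 23 members rose and 9 fell in the diploid (33.4% and 26.6% of all genes) and 28 rose and 10 fell in the triploid (45.0% and 23.8%), among them 5 of 6 regulators that rose in each. After scaling the splits were 17 up and 13 down in the diploid and 21 up and 14 down in the triploid. From young to mature leaves 19 rose and 22 fell in the diploid (21.0% and 55.6% of all genes), and 20 rose and 17 fell in the triploid (26.9% and 42.8%). Phosphate transporters and PHO1 exporters led the rises, with 7 of 9 and 2 of 2 in each ploidy. After scaling the diploid split at this step was 27 up and 12 down. Steps differed between the ploidies for 14 members upward and 3 downward from buds to young leaves (19.4% and 6.57% of all genes), and for 14 upward and 8 downward from young to mature leaves (34.9% and 16.3%), 3 of the upward ones being *PHR1*, *PHL6* and *PHL13*. Scaling turned these splits into 10 upward and 5 downward, and 10 upward and 14 downward.

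The ploidy differences at each stage were also counted, in part by role. In terminal buds 9 members were higher and 22 lower in the triploid, where 14.0% and 34.9% of all genes were. Among the lower ones were 5 of 6 regulators and 6 of 9 phosphate transporters, of which 2 regulators and 6 transporters kept the call after scaling, when 12 members in all were higher and 17 lower. In young leaves 11 were higher and 3 lower (11.4% and 11.9% of all genes), with none of the 6 regulators called, and 5 and 3 without triploid library 2. In mature leaves 19 were higher and 9 lower (42.4% and 22.6%), and 13 and 19 after scaling. In senescent leaves 14 were higher and 18 lower (40.1% and 20.0%), and 13 and 27 after scaling (8 and 24 with edgeR). There 4 of 6 regulators were higher and none lower, and of the other 44 members 10 were higher and 18 lower, with a median difference of -0.15 over these 44, against 0.56 over the regulators and 0.17 over all genes (after scaling -0.45, 0.26 and -0.0038). With edgeR 2 regulators were higher and 2 lower, and 6 and 22 of the others. The fourth of these regulators, *PHL2*, had a scaled difference of 0.066 in place of 0.36, and after scaling 3 regulators were higher and 1, *PHL11*, lower.

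**Figure D4:**
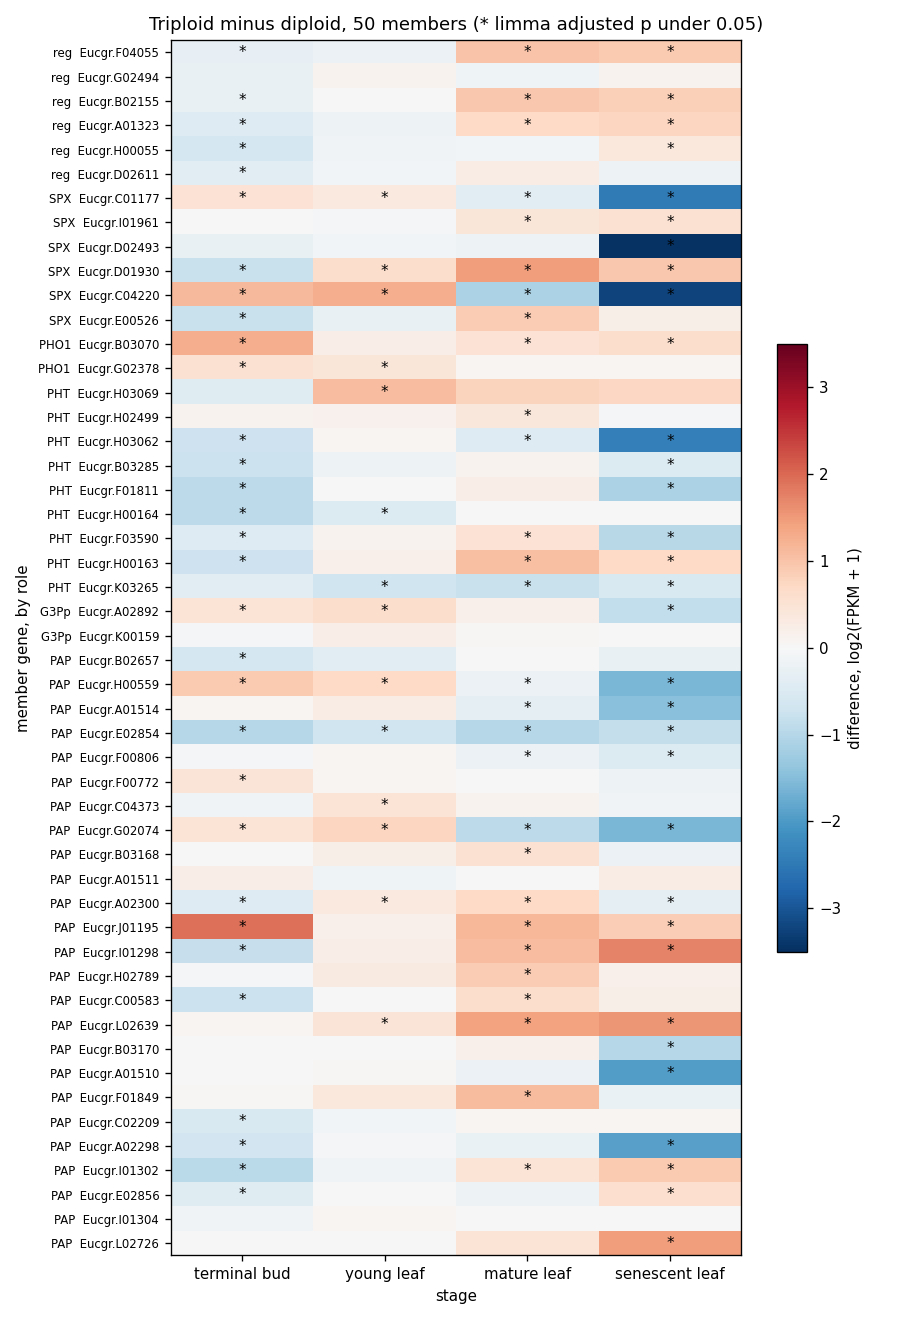
Difference between triploid and diploid in log2(FPKM + 1) for the 50 tested members (rows, by role) at the 4 stages (columns), red for higher and blue for lower in the triploid, with an asterisk where limma gave an adjusted p under 0.05. PHR1 (Eucgr.A01323), PHL6 (Eucgr.F04055) and PHL13 (Eucgr.B02155) are blue in terminal buds, where only the PHR1 call holds after scaling, and red in mature and senescent leaves, and the deepest blue is in senescent leaves, at SPX3 (-3.46) and SPX1 (-3.24).

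The levels of regulators and likely targets were set side by side over the 8 group means of log2(FPKM + 1). These Pearson r values are a description over 8 points that share 4 stages, 2 ploidies and the scaling of their libraries. *SPX1*, *SPX2*, *SPX3*, *PAP17* and *PHT1-4* (Eucgr.H03062) were set together here after their values were seen, so their r of 0.45 to 0.93 with one another restates that choice. With *PHR1* the same genes had an r of -0.40 (*SPX1*), -0.32 (*SPX2*), -0.29 (*SPX3*), -0.39 (*PAP17*) and -0.22 (*PHT1-4*). With *PHL6* they had 0.04, -0.04, -0.18, -0.30 and -0.44, and with *PHL13* 0.32, 0.26, 0.04, -0.08 and -0.35. After scaling the values in the same order were -0.32, -0.38, -0.40, -0.60 and -0.52 for *PHR1*, 0.18, 0.027, -0.15, -0.29 and -0.52 for *PHL6* and 0.42, 0.32, 0.091, -0.019 and -0.34 for *PHL13*. The group with the highest *SPX2* level, diploid senescent leaves (1024 FPKM), had *PHR1* at 11.5 FPKM. The groups with the highest *PHR1* levels, young leaves of the diploid and triploid senescent leaves (21.8 and 20.1 FPKM), had *SPX2* at 73.2 and 185 FPKM.

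Each regulator was also set against all 44 other tested members. How many of all genes reach such r values with each regulator was not computed, so the counts do not set the members apart. *PHL13* had an r of at least 0.7 with 15 of them and at most -0.7 with 2, *PHL6* with 8 and 2, and *PHR1* with 2 and 1. *PHL8* and *PHL2*, which are low in senescent leaves, had an r of at most -0.7 with 12 and 13 and at least 0.7 with 4 and 2, and *PHL11* with 1 and 7. After scaling the counts at or below -0.7 were 12 for *PHL8*, 6 for *PHL2* and 7 for *PHL11*. The median r was 0.45 for *PHL13*, 0.345 for *PHL6*, 0.085 for *PHR1*, -0.17 for *PHL11*, -0.38 for *PHL8* and -0.43 for *PHL2*. After scaling these medians were 0.43, 0.46, -0.0060, -0.27, -0.47 and -0.41. The highest r of *PHL13*, 0.97, was with *PAP23* (Eucgr.H02789), and that of *PHL6*, 0.91, with a *PAP26* copy (Eucgr.C00583), genes picked here after their values were seen.

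**Figure D5:**
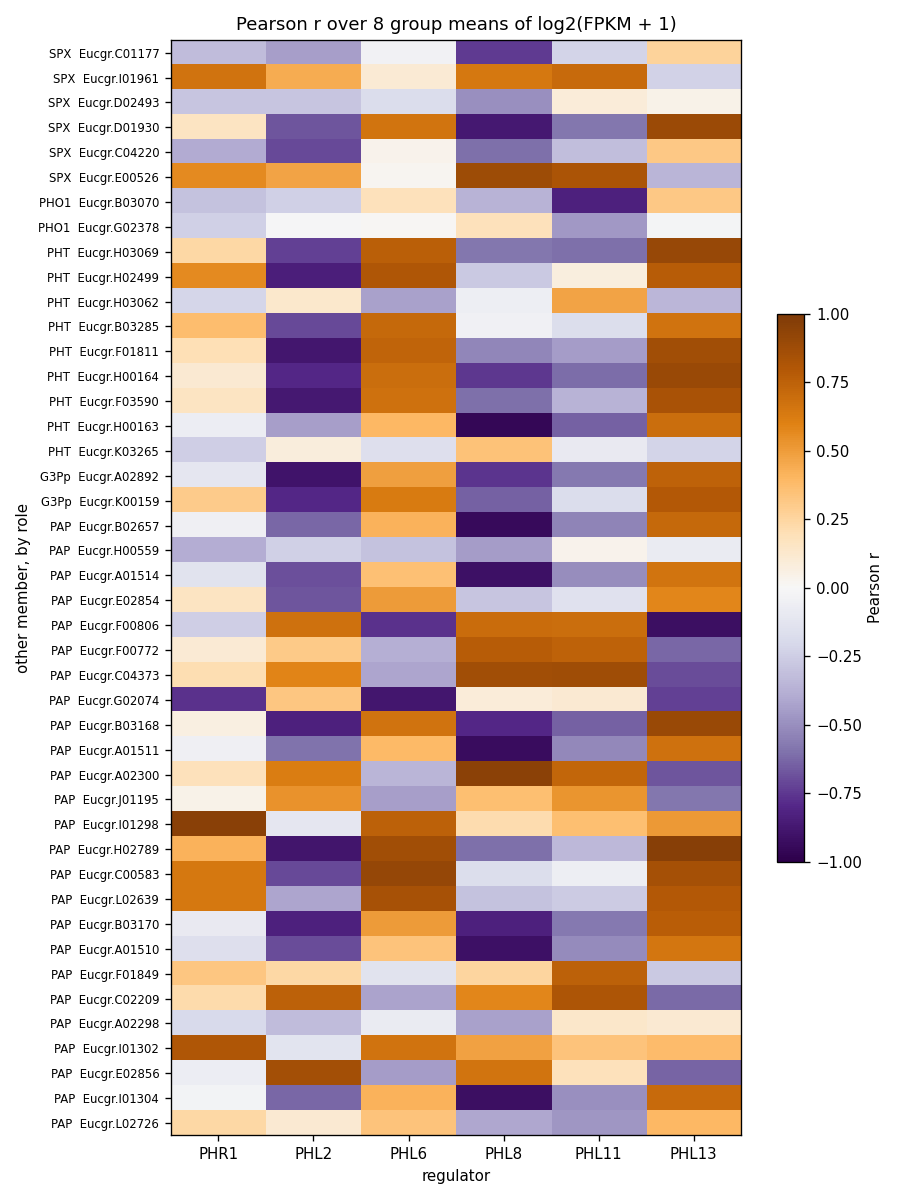
Pearson r over the 8 group means of log2(FPKM + 1) between each of the 6 regulators (columns) and the 44 other tested members (rows, by role), orange for positive and purple for negative. PHL13 has the most orange rows (15 at or above 0.7), and PHL8 and PHL2 the most purple ones (12 and 13 at or below -0.7, and 12 and 6 after scaling, when PHL11 has 7).

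Many members lie next to one another on the chromosomes, which the choice by description did not use. Within 100000 bp of each other, end to start, were 13 pairs of neighbouring members, 9 of them between PAP genes, 2 between PHT1 genes on chromosome 8, and the others on chromosome 9, *SPX4* with a PHO1 gene and a pair of PHO1 genes. Neighbours did not always share a pattern. *PHT1-4* (Eucgr.H03062) and *PHT1-3* (Eucgr.H03069), 93107 bp apart, had an r of -0.50 over the 8 group means, and *PHT1-4* (Eucgr.H00163) and *PHT1-7* (Eucgr.H00164), 18362 bp apart, an r of 0.77. The *PAP22* copies had an r of 0.97, and the *PAP29* copies on chromosome 5 (Eucgr.E02856 and Eucgr.E02854) one of -0.55.

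Other genes of the phosphate pathway, 55 by a list of descriptions and 51 of them tested, were also followed. The wording of the list also took in molybdate transporters and exoribonucleases, which belong to other pathways. From mature to senescent leaves 24 rose and 10 fell in the diploid, and 24 rose and 16 fell in the triploid, or 47.1% and 19.6%, and 47.1% and 31.4%, where all genes had 25.3% and 32.4%, and 29.0% and 32.1%. The steps differed for 7 upward and 11 downward (13.7% and 21.6%, against 13.6% and 12.1% of all genes), with a median difference of -0.093. In senescent leaves 21 were higher and 8 lower in the triploid (41.2% and 15.7%, near the 40.1% and 20.0% of all genes), and 12 and 11 after scaling. *GDPD1* (Eucgr.I01620), whose Arabidopsis counterpart breaks down glycerophosphodiesters in starved plastids, also rose more in the diploid. It was at 40.4, 45.5 and 46.3 FPKM in diploid mature and 230.5, 227 and 236 FPKM in diploid senescent leaves, and at 31.8, 30.5 and 32.5 and 60.2, 60.6 and 58.8 FPKM in the triploid (difference of the steps -1.47, adjusted p = 1.3e-07). In terminal buds and young leaves it was higher in the triploid (log2 0.42 and 0.39, adjusted p = 0.0017 and 0.0069).

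Genes of lipid remodelling moved in both directions from mature to senescent leaves. Of 6 galactolipid synthesis genes 5 rose and 1 fell in the diploid, and 4 rose and 1 fell in the triploid. Of 6 non-specific phospholipases 3 rose and 1 fell in the diploid, and 2 rose and 2 fell in the triploid. *MGD2* (Eucgr.C04379), which makes galactolipids that stand in for phospholipids, rose from 12.6 to 167 FPKM in diploids and from 14.3 to 106 FPKM in triploids (difference of the steps -0.82, adjusted p = 0.00024). A second *MGD2* (Eucgr.C00495) rose to 25.7 and 31.6 FPKM, with a difference of -0.093 between the steps (adjusted p = 0.81). Another *MGD2* copy (Eucgr.C00320) went from 7.52 to 30.6 FPKM in diploids and from 10.7 to 36.1 FPKM in triploids. The non-specific phospholipases *NPC1* (Eucgr.B02259) and *NPC3* (Eucgr.D01048), which cleave phospholipid head groups, rose to 503 and 5.24 FPKM in the diploid and 285 and 6.53 FPKM in the triploid (log2 from mature leaves 2.56, 1.79, 2.22 and 2.45). Another *NPC3* (Eucgr.E01780) had group means of at most 0.0178 FPKM in mature and senescent leaves. A gene described as inorganic pyrophosphatase 2 (Eucgr.F03119) rose in the diploid from 271, 287 and 271 to 401, 385 and 414 FPKM and fell in the triploid from 148, 155 and 157 to 88.6, 87.7 and 84.4 FPKM (difference of the steps -1.34, adjusted p = 2.6e-08). The kinase of phosphoenolpyruvate carboxylase, *PPCK1* (Eucgr.H03059), rose further in the triploid, from 4.82, 4.88 and 4.13 to 6.93, 10.03 and 10.1 FPKM in diploids and from 0.255, 0.234 and 0.688 to 14.4, 18.2 and 20.3 FPKM in triploids (difference 2.92, adjusted p = 1.0e-08). Its neighbour by number, *PPCK2* (Eucgr.H03060), rose in both, to 10.9 and 7.82 FPKM (log2 2.27 and 2.63).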

How the data were processed

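RNA-seq libraries of 4 leaf stages of triploid and diploid *E. urophylla* (24 libraries, 8 groups of 3) were analysed from the deposited table. Per the submitters' processing notes the tools were HISAT2 (2.0), StringTie (1.3.0) and Bowtie (0.12.2). The authors deposited FPKM values and read counts per gene with *Eucalyptus grandis* descriptions. Groups came from the tissue and genotype labels. Values at or below 0.0001 were read as 0, and 2 count columns that matched no library by name were not used, which left 22 libraries with counts, 1 of them diploid senescent.

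log2(FPKM + 1) of the 19174 genes averaging 0.5 FPKM or more was fitted with limma (3.58.1, variance trend, 8 group means) in R (4.3.3), with Benjamini-Hochberg adjustment over all of them and a threshold of 0.05. A fold change on this scale understates that of low genes. Alternatives were median-ratio scaling (genes with at least 1 FPKM in every library), a pseudocount of 0.1, no filter, each library left out, the 3 deviating libraries left out, the replicate number as a block, and edgeR (4.0.16) and DESeq2 (1.42.0) on the counts. The fits were tested on simulated data. Named genes were all tested regulators, SPX proteins, PHO1 exporters and transporters. Of the PAP genes, the 6 with the highest mean and the 6 with the largest change were named. At most 8 other pathway genes were named. They had the largest changes among genes called from mature to senescent leaves or between the ploidies in senescent leaves. Their changes in these comparisons thus restate that choice. Some further copies of these genes are given beside them. The members and lists were chosen with earlier results of these data known.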

Additional observations from a re-analysis of the deposited data

Results flagged for a closer look

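The results listed here are changes between stages that differed between the ploidies by the limma interaction test, with the triploid step minus the diploid step on the log2(FPKM + 1) scale. From mature to senescent leaves the SPX genes differed by -3.28 (*SPX3*), -2.14 (*SPX1*), -2.07 (*SPX2*) and -0.68 (Eucgr.E00526), and the phosphate transporters by -1.92 (*PHT1-4*, Eucgr.H03062), -1.46 (*PHT1-9*), -1.34 (*PHT1-8*), -0.61 (*PHT2-1*, Eucgr.B03285) and -0.46 (*PHT2-1*, Eucgr.H02499). The glycerol-3-phosphate transporter Eucgr.A02892 differed by -1.05. Among the PAP genes the differences were -1.77 (*PAP20*), -1.39 (*PAP17*), -1.16 (*PAP22*, Eucgr.A01514) and -1.03 (*PAP16*). Of the regulators *PHL2* differed by 0.45, in the opposite direction. The calls of *PHL2*, *PAP20* and Eucgr.E00526 were lost under alternatives named above. Other pathway genes differed by -1.47 (*GDPD1*), -1.34 (inorganic pyrophosphatase 2), -0.82 (*MGD2*, Eucgr.C04379) and 2.92 (*PPCK1*). From young to mature leaves *PHL6* differed by 1.19 and *SPX1* by -2.36.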

How the results depend on the processing

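Of 105 gene results given, 88 were called by limma. Median-ratio scaling kept the direction and call of 102, and ended the higher *PHL2* level in triploid senescent leaves (0.066). It turned the fall of *PHL6* from young to mature diploid leaves to 0.027, and DESeq2 turned it to 0.082. edgeR and DESeq2 turned the *PHL2* difference in senescent leaves to -0.21 and -0.15. These tools kept 95 and 94 results, and their senescent comparisons rest on 1 diploid library. A pseudocount of 0.1 ended 3 calls, the lack of a filter 1, and leaving out the 3 deviating libraries 2. The cause of these changes was not tested. Each library left out in turn kept 780 single results and changed the call of 18 (17 lost, 8 of them for Eucgr.E00526, and 1 gained), and moved the 14 members called between the ploidies in young leaves to between 8 (without triploid library 2, 5 higher and 3 lower) and 18. In the other 12 comparisons the total of members called, both directions together, stayed within 1.5 times its value under every alternative. The splits by direction moved more. In mature leaves 19 higher and 9 lower became 13 and 19 after scaling, and from young to mature diploid leaves 19 and 22 became 27 and 12.

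Whether replicate numbers pair the libraries stayed unsettled. Deviations of same-numbered libraries correlated at -0.204 to 0.103 across ploidies, and 5 of 12 pairs were best by number among 3 candidates. Across stages they correlated at -0.312 to 0.317, and 18 of 36 pairs were best by number. With the number as a block, 24 members differed in the step from mature to senescent leaves, as without it, and no single result changed its call. Promoter motifs of the members were not analysed here. The depth of 38395755 to 64400745 counts per library bounds what can be said of the 7 untested members, whose means were at most 0.462 FPKM.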
